A study of Mus musculus with 9 samples.

Results

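Alveolar macrophages that had lost Vhl were compared with macrophages that carried the same floxed Vhl alleles but no Cre recombinase, over all 12003 genes of the deposited table. The comparison uses 6 of the 9 libraries in the series, chosen by their genotype labels. The 3 floxed control libraries are Vhl(flox/flox) / CD11c (+/+), and the 3 knockout libraries are Vhl(flox/flox) / CD11c (cre/+). The remaining 3 libraries, the Cre controls (Vhl(+/+) / CD11c (cre/+)), had no place in the test and are printed beside single genes for reference. Mice were sex-matched, 8 to 12 weeks old, on a C57BL/6 background and not treated. Each library holds RNA from a pool of 5 to 7 mice, so a library averages several animals and p-values measure the spread between pools. Cells were washed from the airways by bronchoalveolar lavage and held on beads that bind CD11c, an integrin chain found on alveolar macrophages and dendritic cells. The same CD11c promoter drives Cre, so dendritic cells can also recombine Vhl, and the 2 groups differ in Cre as well as in Vhl. By its title, the study asked how VHL bears on the terminal differentiation of these cells, on their self-renewal and on what they do.

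VHL is the subunit of a ubiquitin ligase that recognises the alpha chains of hypoxia-inducible factors (HIF) after prolyl hydroxylases have marked them in the presence of oxygen. Without VHL the alpha chains escape degradation, pair with ARNT and bind hypoxia response elements near their target genes. Known targets serve glycolysis, mitochondrial adaptation, vessel growth and the feedback hydroxylases themselves. Alveolar macrophages live in the air-filled spaces of the lung, clear surfactant lipid and renew themselves locally by division.

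The core letters of the hypoxia response element are ACGTG and GCGTG. Both were searched on both strands in the RefSeq promoter windows (GRCm38.p6, 250 bases before to 50 bases after each gene start), where 43.8% of 32851 windows hold at least 1 match, 19.6% hold ACGTG and 32.4% hold GCGTG. Of the 12003 measured genes, 9241 had such a window, and 61.9% of their 11744 windows hold at least 1 match. The windows of 4 genes that rose in the knockout are shown because their products mark the main branches of the response described below. Egln3 encodes an oxygen-sensing hydroxylase, Bnip3 a mitophagy receptor, Slc2a1 a glucose transporter and Pgk1 a glycolytic enzyme. Capitals mark each match, on either strand, and overlapping matches run together.
Egln3, chr12:54203825-54204124, minus strand: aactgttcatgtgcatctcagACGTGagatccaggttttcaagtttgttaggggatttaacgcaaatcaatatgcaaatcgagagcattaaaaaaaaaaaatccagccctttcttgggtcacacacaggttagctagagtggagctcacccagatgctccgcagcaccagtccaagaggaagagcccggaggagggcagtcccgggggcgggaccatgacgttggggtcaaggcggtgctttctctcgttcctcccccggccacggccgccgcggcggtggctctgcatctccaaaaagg
Bnip3, chr7:138909457-138909756, minus strand: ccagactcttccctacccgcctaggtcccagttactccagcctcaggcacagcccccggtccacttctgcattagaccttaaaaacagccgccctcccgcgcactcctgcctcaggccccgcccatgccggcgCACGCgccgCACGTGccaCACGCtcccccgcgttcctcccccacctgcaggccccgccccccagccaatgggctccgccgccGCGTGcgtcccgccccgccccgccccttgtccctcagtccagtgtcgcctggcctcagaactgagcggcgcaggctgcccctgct
Slc2a1, chr4:119108495-119108794, plus strand: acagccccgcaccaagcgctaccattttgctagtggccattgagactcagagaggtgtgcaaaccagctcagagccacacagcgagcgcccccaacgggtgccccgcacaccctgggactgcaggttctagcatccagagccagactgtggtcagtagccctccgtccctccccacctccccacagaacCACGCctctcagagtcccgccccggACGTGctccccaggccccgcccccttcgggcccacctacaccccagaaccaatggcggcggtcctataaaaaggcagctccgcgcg
Pgk1, chrX:106186850-106187149, plus strand: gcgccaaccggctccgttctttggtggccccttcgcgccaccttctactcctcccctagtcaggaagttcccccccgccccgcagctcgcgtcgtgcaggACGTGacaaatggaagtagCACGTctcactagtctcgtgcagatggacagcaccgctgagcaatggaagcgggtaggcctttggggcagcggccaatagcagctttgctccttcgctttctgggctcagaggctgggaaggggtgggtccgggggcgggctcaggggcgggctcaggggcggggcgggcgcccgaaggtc
The Egln3 window holds 1 match, at position -229 from the gene start. The Bnip3 window holds 5 matches, the Slc2a1 window 2 and the Pgk1 window 2. A match in such a window is a description of its letters. Of the 433 genes called at least 2-fold higher, 328 had a window. At least 1 match was in 56.5% of their 444 windows, beside 61.9% for all measured genes. ACGTG was in 27.3% beside 25.7%, and GCGTG in 43.0% beside 50.4%. Fewer than 80% of these 433 genes had a window, so the shares describe a part of them, and they were not tested.

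Vhl (ENSMUSG00000033933, chromosome 6, 113623959 to 113631633, GRCm38) was low in every knockout library. It had 2.02, 2.14 and 2.52 normalized reads in the knockouts, against 21.0, 14.9 and 18.4 in the floxed controls. The groups do not overlap, and the knockout mean was 12.3% of the floxed mean. On the log2 scale this was a fall by 2.56 (SE 0.145, adjusted p = 1.59e-05 in limma). Cre controls had 24, 21.9 and 25.3, all above the floxed range. A normalized read is a read count scaled to library size, with no correction for gene length, and because reads were counted per gene these values cannot locate the deleted exon. The floxed and knockout libraries held 18502817 to 25861174 reads, and a count of 0 allows at most 3 reads, which is 0.120 to 0.163 normalized reads.

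Across the genome, 3734 genes (31.1%) were called by limma at an adjusted p under 0.05, 1919 higher (16.0%) and 1815 lower (15.1%). The counts of list members below are to be read beside these shares. At least 2-fold changes, on the log2(value + 1) scale of the test, were called for 433 genes higher (3.61%) and 370 lower (3.08%). On the same scale the steep end pointed up: 138 genes were at least 4-fold higher and 30 at least 4-fold lower. Past 8-fold were 58 higher and 2 lower genes, and past 16-fold 24 and 0. This scale shrinks the folds of low genes in both directions. As ratios of group means, Igflr1, Fam167a and Adgre4 fell 24.2-fold, 23.1-fold and 20.3-fold, and Ak4 rose 348-fold. In 5683 genes (47.3%) the 3 knockout libraries lay wholly above or below the 3 floxed libraries. Higher genes made up 51.4% of the calls. Scaled by library size alone, 1502 genes were called higher and 2272 lower, and higher genes made up 39.8%, so the split between directions depends on the scaling. Without knockout library 3 the calls were 1319 higher and 1195 lower, the lowest of the 6 counts with 1 library left out.

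**Figure D1:**
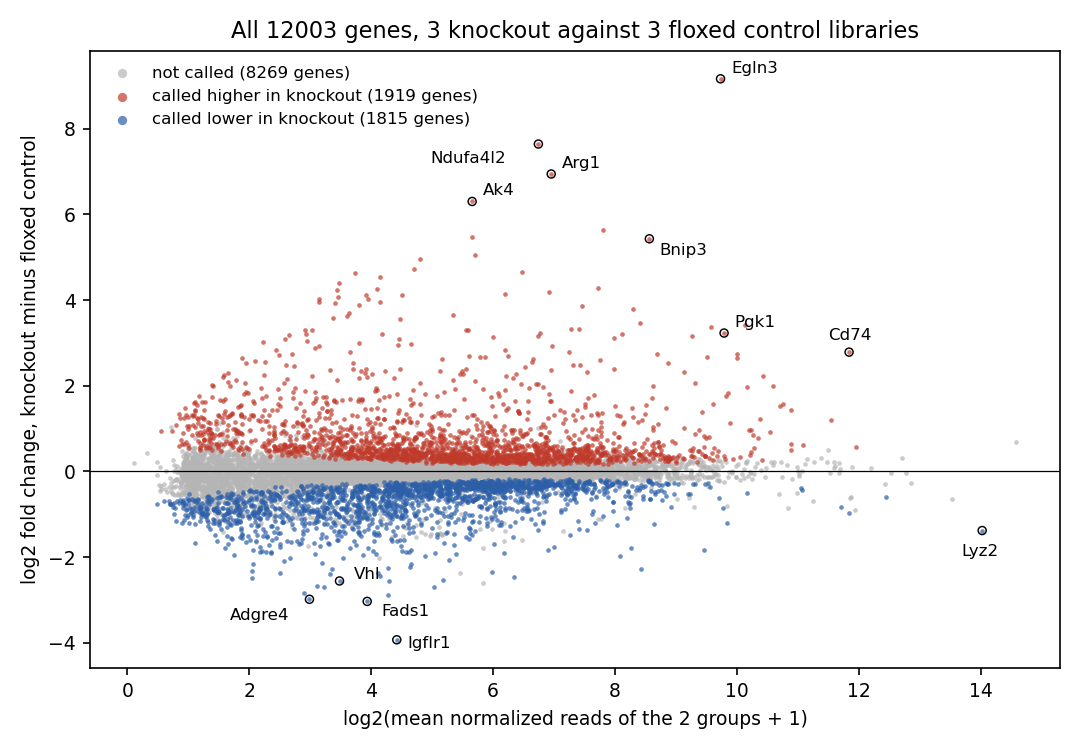
Each point is 1 of 12003 genes, with its mean level in the 6 libraries (log2 of mean normalized reads + 1) on the horizontal axis and the log2 fold change, knockout minus floxed control, on the vertical axis. Red points were called higher (1919), blue points lower (1815) and grey points were not called (8269). Points reach 9.16 upward (Egln3) but only -3.93 downward (Igflr1).

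The change moved a visible part of the RNA pool. Genes called at least 2-fold higher took 2.17 to 2.33% of normalized reads in floxed libraries and 8.01 to 8.27% in knockout libraries. Genes called at least 2-fold lower went the other way, from 3.76 to 4.50% down to 1.32 to 1.59%. These shares describe genes that were picked for their change. Calls were spread over the autosomes, from 25.3% of measured genes on chromosome 13 to 36% on chromosome 9, with 33.4% on chromosome 6, where Vhl lies. They were more frequent among well expressed genes, with 26.5% called among the 2401 genes of lowest mean level and 37.4% among the 2401 of highest. Of 150 long intergenic noncoding RNA genes, 30 were called higher (20%, beside 16.0% of all genes) and 7 lower (4.67%, beside 15.1%). The share called either way was 24.7%, beside 31.1% of all genes.

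The 15 highest log2 fold changes ran from 4.27 to 9.16 and most of these genes were low in floxed controls. Egln3 had 1609, 1603 and 1883 normalized reads in the knockouts and 5.00, 1.64 and 0.625 in floxed controls, a 701-fold rise of the mean (log2 fold change 9.16, SE 0.403, adjusted p = 4.37e-06). All 3 knockout libraries stood far above every control, and the Cre controls, at 1.57, 1.67 and 1.87, lay among the floxed values. Per kilobase of exon, Egln3 went from rank 10410 among the 11943 genes with a name to rank 59. Ndufa4l2 had 222, 205 and 211 normalized reads in the knockouts against a total of 4 reads over the 3 floxed libraries, a ratio of 3124 with a 95% counting interval of 1220 to 11468. Rtl5, a retrotransposon-derived gene, rose from 7.78 ± 0.590 to 436 ± 27.4 (mean ± SD, n = 3 pools, as in all such values here). Kcnj15, an inward-rectifier potassium channel, rose from 1.2 ± 0.227 to 97.3 ± 8.92, and Abcb4, a phospholipid transporter, from 0.450 ± 0.185 to 32.8 ± 6.68. The pseudokinase gene Nrbp2 rose from 0.907 ± 0.164 to 49.3 ± 6.29 and the kinase gene Cdc42bpa from 19.8 ± 0.694 to 402 ± 48.8. Colgalt2, which adds galactose to collagen hydroxylysine, had 0 reads in all 3 floxed and all 3 Cre control libraries and 19.4, 17.9 and 23 normalized reads in the knockouts, at least 123-fold higher against a floor of 3 reads per library. The counting does not separate strands as far as is stated, so reads of Ndufa4l2 and Shmt2, Rtl5 and Nhsl2, and Cdc42bpa and Coq8a, which overlap, cannot be told apart. The same holds for Ciita, Cyp51, Kif20a, Cxcl16, Csf1r, Irf5, Irf7, Hif1a, Trf, Mxi1, Plin4, Ankrd37, Fam162a, Slc16a6 and Gsg1 below, each of which overlaps another gene.

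Among the 15 lowest, Igflr1, a receptor of the tumour necrosis factor receptor type, had the lowest log2 fold change. It had 48.1, 32.5 and 37.2 normalized reads in floxed controls and 1.89, 1.79 and 1.2 in knockouts (log2 fold change -3.93, SE 0.170, adjusted p = 4.06e-06). The groups do not overlap, and the Cre controls lay at 32.6 to 58.3. Fads1, a fatty acid desaturase, fell from 26.2 ± 2.96 to 2.39 ± 0.912. Adgre4, an adhesion G protein-coupled receptor of myeloid cells, had 19.4, 13.9 and 6.35 in floxed controls and 0.643, 0.715 and 0.600 in knockouts. Cyfip2, part of an actin-regulating complex, fell from 33.1 ± 7.51 to 3.57 ± 0.918. Syp, which encodes synaptophysin, fell from 12.1 ± 1.01 to 0.856 ± 0.381, and Vash1, an inhibitor of vessel growth, from 15.2 ± 4.04 to 1.49 ± 0.426. Spsb1 and Fam167a had log2 fold changes of -2.69 and -2.48. The other members of the 15 were Vhl, Siglece, Fscn1, Sema4d, Slc7a11, Ccr7 and Ccl17, described with their groups.

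**Figure D2:**
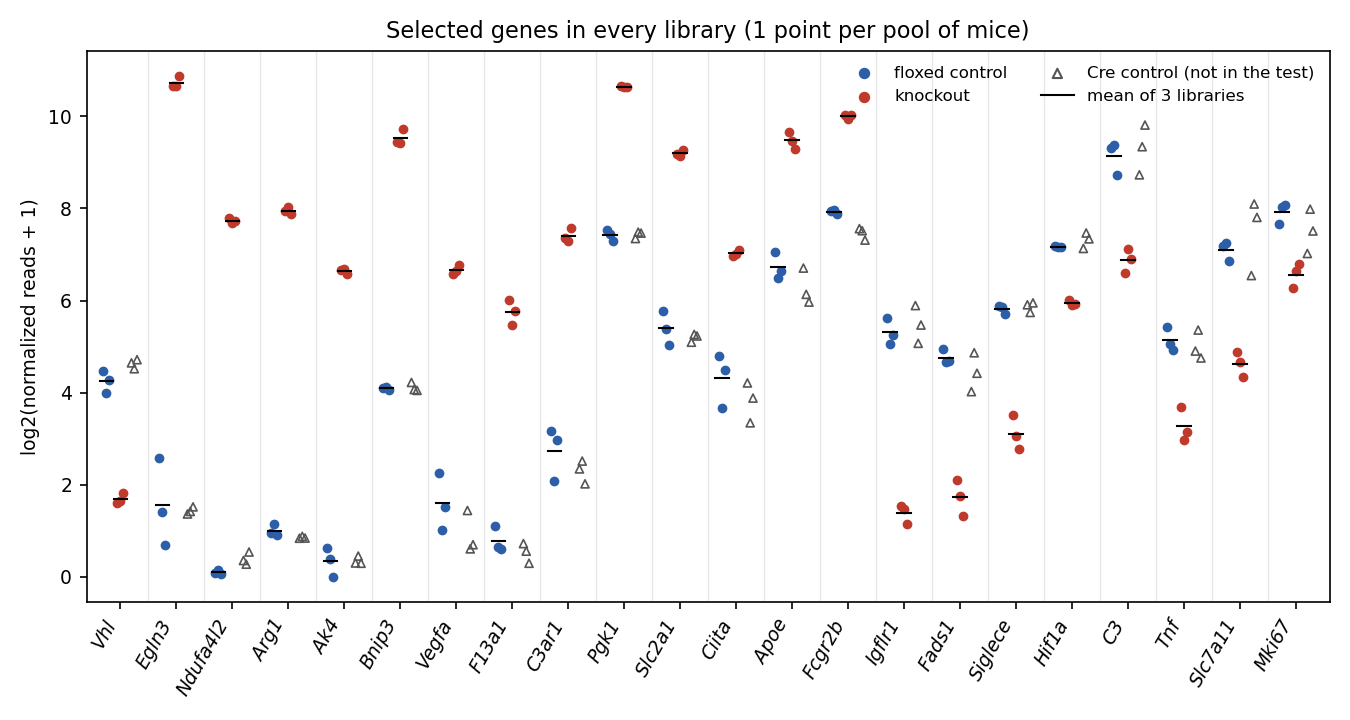
Each point is 1 library, with its log2(normalized reads + 1) on the vertical axis and 22 genes along the horizontal axis; bars are means of 3 floxed (blue) or 3 knockout (red) libraries, and open triangles are Cre controls, which were not tested. Knockout points lie clear of floxed points for all 22 genes, above them for the 13 genes from Egln3 to Fcgr2b and below them for Vhl and the 8 genes from Igflr1 to Mki67.

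The oxygen-sensing machinery itself was changed in part. Of 17 measured members of the VHL ligase and oxygen-sensing list, 5 were higher (16.0% of all genes were) and 2 lower, and the median log2 fold change was 0.12 beside -0.01 over all genes. Egln1, the prolyl hydroxylase that sets HIF stability in most cells, had 276, 294 and 300 normalized reads in knockouts and 52.7, 51.8 and 49.0 in floxed controls (log2 fold change 2.48, SE 0.0613, adjusted p = 2.60e-07). Hif3a, which encodes an alpha chain with mostly restraining forms, had 1 read in all floxed libraries together and 14.6, 16.6 and 15.5 normalized reads in the knockouts, a ratio of 912 with a counting interval of 163 to 36068. Cited2, which competes with HIF alpha for a coactivator, rose from 38.7 ± 4.55 to 111 ± 25.8. Hif1a went the other way. It had 144, 142 and 143 normalized reads in floxed controls and 63.4, 58.6 and 59.5 in knockouts, a log2 fold change of -1.23 (SE 0.0570, adjusted p = 5.76e-06), with Cre controls at 139 to 176. Partners in the ligase were not called: Cul2 had 36 ± 2.77 in floxed and 35.3 ± 0.408 in knockout libraries, and Elob 50 ± 9.96 and 55.8 ± 3.64. Hif1an, the asparaginyl hydroxylase that blocks HIF coactivation, had 35.0 ± 3.60 and 37.8 ± 4.12 and was not called.

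Glycolysis rose nearly from end to end. Of 28 measured genes of glucose entry and glycolysis, 21 were higher, 18 of them at least 2-fold, and 2 lower (1 without floxed library 2 or knockout library 2, 0 without knockout library 3), and the median log2 fold change was 1.5. Slc2a1, the glucose transporter GLUT1, had 583, 563 and 616 normalized reads in knockouts and 54.0, 40.7 and 31.9 in floxed controls (log2 fold change 3.80, SE 0.164, adjusted p = 4.05e-06). At the next steps, Pfkl, the liver-type phosphofructokinase, rose from 53.8 ± 6.04 to 502 ± 10.4, and Pfkfb3, which makes its activator, from 47.3 ± 2.58 to 123 ± 14.5. Pfkp, another isoform, rose 2.52-fold, and the muscle isoform Pfkm, at 1.79 ± 0.00772 and 2.17 ± 0.0741, was not called. Further down, Pgk1 had 1625, 1583 and 1595 against 183, 173 and 155, and Tpi1 rose 10.3-fold. The steps that keep the most RNA showed smaller folds. Aldoa rose 2.68-fold, Pkm 2.88-fold, Gapdh 2.78-fold and Ldha, which turns pyruvate to lactate, 3.91-fold. Per kilobase of exon, Pgk1 moved from rank 601 to rank 48 and Aldoa from rank 100 to rank 37. Pdk1, which closes the entry of pyruvate into the tricarboxylic acid cycle, rose from 46.9 ± 1.72 to 268 ± 19.8.

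Lactate leaves the cell through monocarboxylate carriers. The carrier gene Slc16a3 rose from 82.8 ± 29.4 to 422 ± 26.4 and its chaperone gene Bsg from 156 ± 20.2 to 384 ± 8.40, while Slc16a1, at 28.5 ± 2.55 and 29.2 ± 0.835, was not called and Slc16a6 fell from 38.2 ± 3.65 to 16.0 ± 2.10. Car9, a carbonic anhydrase often used as a marker of HIF activity, was low and rose from 5.24 ± 0.168 to 9.55 ± 1.12. Of 8 pentose phosphate genes, limma called 0 higher and 3 lower (5 lower without floxed library 3), edgeR called 0 and 2, and 1 was higher and 4 lower at an unadjusted p under 0.05. The share called by limma was 37.5%, beside 31.1% of all genes.

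Glycogen genes changed on both the synthetic and the breakdown side. Of 21 measured genes, 8 were higher and 1 lower. Gys1, the muscle-type glycogen synthase, had 215, 221 and 227 normalized reads in knockouts and 26.7, 26.7 and 30.7 in floxed controls (log2 fold change 2.94, SE 0.0717, adjusted p = 2.56e-07). Pgm1, which links glucose 6-phosphate to glycogen, rose from 25.2 ± 1.08 to 121 ± 0.350, the branching enzyme gene Gbe1 2.94-fold and Ppp1r3b, which targets a phosphatase to glycogen, 3.70-fold. The liver phosphorylase gene Pygl rose from 450 ± 11.6 to 819 ± 19.7. The member that fell was Gyg, the self-glucosylating primer of glycogen, from 177 ± 15.5 to 125 ± 12.9. Gys1 and Tpi1 overlap other measured genes (Ruvbl2 and Spsb2), so their values may hold reads of those genes.

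In the list of hypoxic remodelling and mitophagy, 10 of 22 measured genes were higher and 3 lower. Bnip3 had 697, 679 and 843 normalized reads in knockouts and 16.1, 16.5 and 15.7 in floxed controls (log2 fold change 5.43, SE 0.0878, adjusted p = 3.21e-08). Its relative Bnip3l, already well expressed, rose from 321 ± 16.0 to 518 ± 21.1. Mgarp, which acts in mitochondrial transport, had 2 reads over all floxed libraries and 24.7, 24.1 and 25.3 normalized reads in the knockouts. Fam162a rose 4.42-fold and Higd1a 3.44-fold. Ndufa4, a cytochrome oxidase subunit gene, fell from 71.9 ± 8.80 to 23.4 ± 1.54 where its paralog Ndufa4l2 rose, and per kilobase of exon the order of the pair changed from 52.0 and 0.0624 to 16.9 and 194 normalized reads. Ak4, a mitochondrial adenylate kinase gene, had 100, 101 and 94.8 in knockouts against 0.544, 0.307 and 0 in floxed controls, while Ak3 fell from 65.4 ± 6.67 to 47.9 ± 0.904.

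By contrast, nuclear-encoded respiratory chain genes were little called, with 1 of 74 higher and 3 lower. Left-out libraries moved the lower count from 0 (without floxed library 2 or knockout library 3) and 1 (without floxed library 1 or knockout library 2) to 13 (without floxed library 3), and the higher count to 4 (without floxed library 1). Cox4i1 had 213 ± 26.0 and 217 ± 13.5 normalized reads. The 1 higher member was Ndufv3, a subunit gene of complex I, from 34.7 ± 3.37 to 69.5 ± 0.949. In the tricarboxylic acid cycle list, 3 of 35 were higher and 6 lower (3 lower without floxed library 2 or knockout library 2 or 3). The share called was 25.7%, beside 31.1% of all genes. Cs, citrate synthase, fell from 251 ± 10.9 to 207 ± 4.28, and Pdha1, of the pyruvate dehydrogenase complex, was at 86.8 ± 5.61 and 86.8 ± 1.70. Of 76 mitochondrial ribosomal protein genes, limma called 0 higher and 3 lower (1 higher and 1 lower without floxed library 1, and 0 lower without floxed library 2 or any 1 knockout library), DESeq2 called 0 and 2, and 2 were higher and 5 lower at an unadjusted p under 0.05. Mitochondrially encoded genes took 2.67 to 5.59% of normalized reads in floxed and 1.77 to 2.39% in knockout libraries, with floxed library 1 highest, and 1 of 13 was called lower (0 without floxed library 2 or any 1 knockout library, 4 without floxed library 1, 8 without floxed library 3). Of 40 fatty acid oxidation and peroxisome genes, 15 were called higher and 4 lower (9 higher without knockout library 3). Ehhadh, a peroxisomal enzyme gene, rose from 23.4 ± 2.12 to 37.8 ± 0.422, and Cpt1a, which admits long-chain fatty acids to mitochondria, had 504 ± 34.6 and 530 ± 17.0 and was not called.

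Arg1, the arginase that splits arginine into ornithine and urea, was close to 1 normalized read in the controls and high in all knockouts. It had 244, 259 and 233 normalized reads in knockouts and 0.924, 1.23 and 0.866 in floxed controls (log2 fold change 6.94, SE 0.0941, adjusted p = 1.16e-08), with Cre controls at 0.787 to 0.837. Slc7a2, the carrier that brings arginine into macrophages, rose from 867 ± 52.4 to 2605 ± 319, and the second carrier gene Slc7a1 fell from 45.5 ± 5.08 to 31.2 ± 0.911. Ass1, which rebuilds arginine from citrulline, fell from 25.1 ± 16.2 to 5.50 ± 1.45, with floxed library 1 at 43.5 and the others at 18.9 and 12.9. Odc1, the first enzyme of polyamine synthesis, had 75.3 ± 14 and 77.4 ± 7.81 and was not called. Over the list of 21 arginine and polyamine genes, 7 were higher and 4 lower, with 4 higher without knockout library 1 or 3.

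Genes of collagen hydroxylation were mostly higher. Of 11 measured genes, 7 were higher and 1 lower (0 lower without knockout library 1 or 3). Plod2, a lysyl hydroxylase gene, had 30.0, 26.2 and 26.3 normalized reads in knockouts and 1.14, 0.461 and 0.433 in floxed controls (log2 fold change 4.11, SE 0.175, adjusted p = 3.87e-06). P4ha1, the prolyl hydroxylase alpha chain, rose from 61.0 ± 5.64 to 310 ± 11.7 and Plod1 from 121 ± 11.8 to 301 ± 10.5. Among histone and DNA demethylases that use the same cofactors, limma called 7 of 26, or 26.9%, where 31.1% of all genes were called. By limma these were 7 higher and 0 lower (1 lower without floxed library 2 or 3 or knockout library 3), DESeq2 called 7 and 1, and 9 were higher and 3 lower at an unadjusted p under 0.05. Kdm4b rose from 20.7 ± 2.40 to 69.1 ± 2.83, Kdm5b from 12.4 ± 2.30 to 28.7 ± 0.669 and Kdm3a from 39.0 ± 3.49 to 82.5 ± 4.96, while Tet2 and Kdm6b, at 40.7 ± 8.79 and 40.6 ± 7.15 and at 71.1 ± 24.1 and 68.1 ± 13.3, were not called.

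Of 27 genes of growth restraint and mTOR regulation, 12 were higher and 1 lower (2 lower without floxed library 3). Ndrg1, a stress-induced differentiation gene, had 156, 118 and 136 normalized reads in knockouts and 12.4, 3.74 and 6.44 in floxed controls (log2 fold change 4.14, SE 0.329, adjusted p = 8.50e-05). Ankrd37 rose from 0.247 ± 0.224 to 19.7 ± 0.642. Mxi1, an antagonist of MYC, rose 2.52-fold, and the cyclin-dependent kinase inhibitor genes Cdkn1b and Cdkn1a rose 1.64-fold and 1.41-fold. Ddit4, which holds back mTORC1, was low but rose from 1.37 ± 0.606 to 4.01 ± 0.315. Eif4ebp1, a translation repressor under mTORC1, rose from 38.3 ± 1.88 to 81.5 ± 1.03. Myc itself was also higher, at 83.1, 62.8 and 51.1 against 34.4, 43.5 and 35.5 (adjusted p = 0.0125).

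Cell division genes fell together. Of 49 mitosis genes, 46 were lower and 1 higher (Anln, at a log2 fold change of 0.24, lost when any 1 library other than floxed library 3 was left out). Of 50 DNA replication genes, limma, edgeR and DESeq2 each called 41 lower and 0 higher, and 43 were lower and 0 higher at an unadjusted p under 0.05. The lists had median log2 fold changes of -0.95 and -0.71. The number of mitosis genes called lower was 46 in each of the 14 alternative analyses, and that of replication genes ran from 38 to 43. Mki67, the marker of cycling cells, had 201, 261 and 267 normalized reads in floxed controls and 75.8, 98.8 and 109 in knockouts (log2 fold change -1.35, SE 0.156, adjusted p = 0.000521). Cre controls had 129, 252 and 181, so 2 of these lay below the floxed range. Kif20a, a kinesin of cytokinesis, had the lowest log2 fold change of the mitosis list, -1.44. Top2a, which untangles chromosomes, fell from 157 ± 22.3 to 66.7 ± 4.86, Ccnb1, the mitotic cyclin, from 25.6 ± 2.63 to 10.3 ± 1.25, and Uhrf1, which maintains DNA methylation, from 68.4 ± 7.15 to 23.3 ± 5.35. The helicase genes Mcm2 and Mcm10 fell 2.26-fold and 2.69-fold. In RNA from pools of cells, fewer cycling cells and less RNA per cycling cell cannot be told apart, and the same holds for every marker gene below.

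Vascular genes were called mainly higher. Of 16 measured vascular genes, 11 were higher and 3 lower. Vegfa, the main vessel growth factor, had 94.7, 98.5 and 107 normalized reads in knockouts and 3.81, 1.02 and 1.88 in floxed controls (log2 fold change 5.06, SE 0.273, adjusted p = 1.27e-05). The peptide hormone genes Adm and Apln, with 6 and 4 reads over all floxed libraries, reached 19.7 ± 1.48 and 15.6 ± 1.93. Their ratios were 192, with a counting interval of 88.1 to 525, and 230, with one of 89.5 to 845. Flt1, a VEGF receptor, rose from 258 ± 27.8 to 529 ± 16.8, Ecm1 5.14-fold and the growth factor gene Fgf1 5.90-fold. Sema4d, a semaphorin, had 91.1, 54.0 and 39.4 in floxed controls and 12.8, 7.86 and 7.40 in knockouts, and the semaphorin receptor gene Nrp2 fell from 261 ± 32 to 136 ± 5.87.

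Of 18 measured coagulation and fibrinolysis genes, 10 were higher and 2 lower. F13a1, the clot-stabilising transglutaminase, had 63.0, 43.0 and 53.5 normalized reads in knockouts and 1.14, 0.563 and 0.529 in floxed controls (log2 fold change 4.96, SE 0.183, adjusted p = 1.98e-06). F10 rose from 184 ± 20 to 441 ± 14.1, and F7, at 483 ± 32.5 and 468 ± 10.6, was not called. Thbd, thrombomodulin, rose from 38.6 ± 0.264 to 123 ± 15.2, while Procr, the receptor of protein C, fell from 7.65 ± 1.69 to 1.73 ± 0.998. Plaur, the urokinase receptor, rose from 265 ± 24.9 to 344 ± 15.8.

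**Figure D3:**
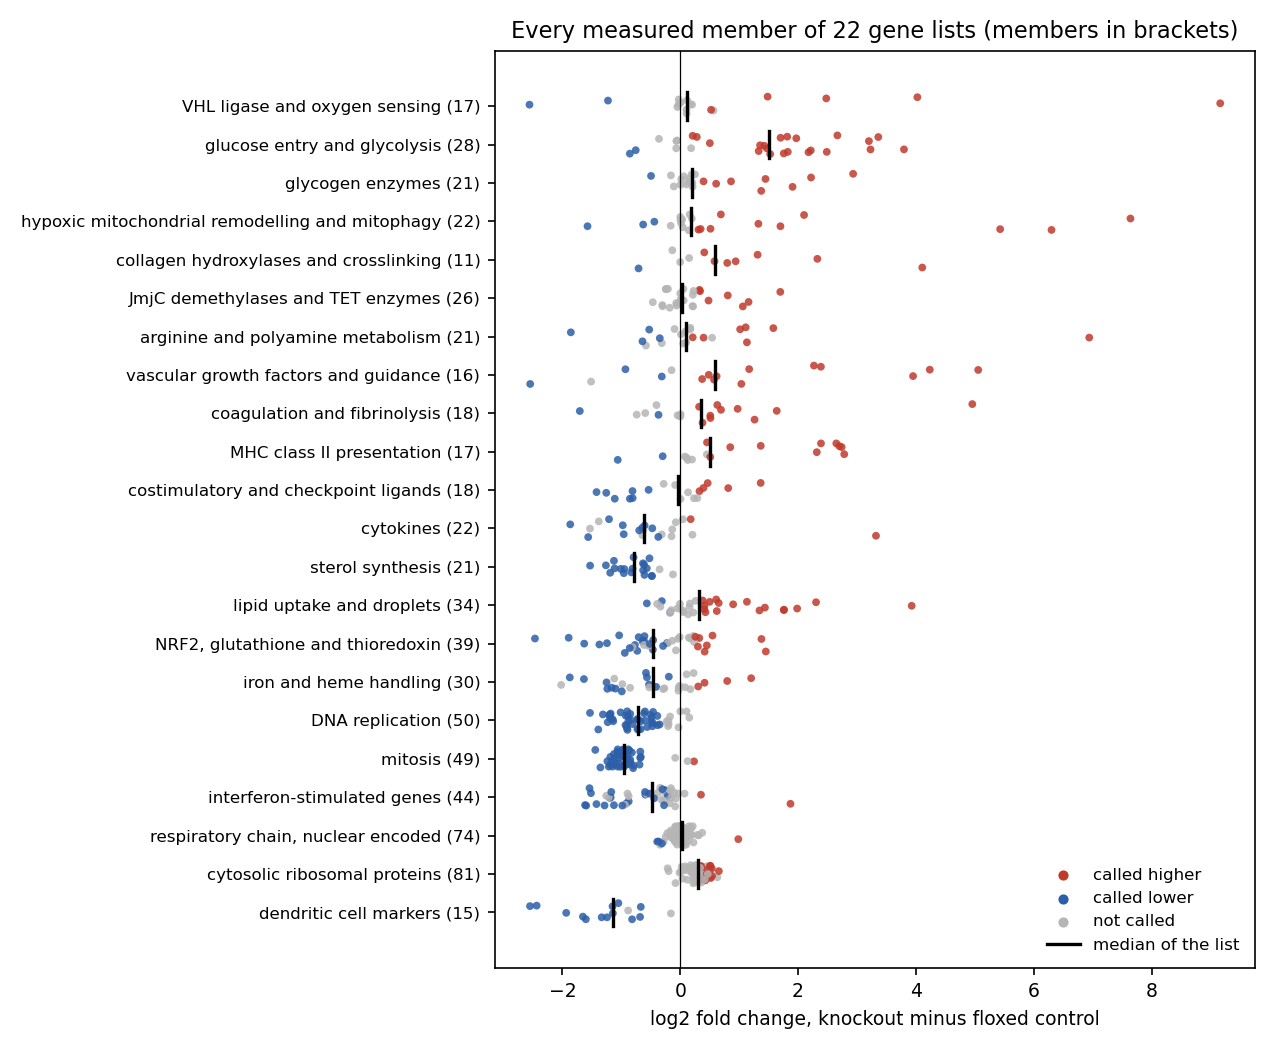
Each point is 1 measured member of 1 of 22 gene lists, with its log2 fold change, knockout minus floxed control, on the horizontal axis and the lists on the vertical axis (members measured in brackets); red and blue mark genes called higher and lower, grey those not called, and black bars are medians. Glycolysis has its median at 1.5, mitosis at -0.95 and dendritic cell markers at -1.15, and the respiratory chain is nearly all grey.

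Of 20 measured complement genes, 6 were higher and 6 lower. C3ar1, the receptor of the C3a fragment, had 164, 155 and 189 normalized reads in knockouts and 7.99, 3.23 and 6.88 in floxed controls (log2 fold change 4.67, SE 0.256, adjusted p = 1.33e-05). C3, from which that fragment is cut, had 95.7, 138 and 118 in knockouts and 636, 662 and 424 in floxed controls (log2 fold change -2.27, SE 0.190, adjusted p = 0.000112). Both sets of libraries were apart, in opposite directions. Cfb, an enzyme of the alternative pathway, fell from 436 ± 171 to 106 ± 17.7. C4b, of the classical pathway, rose from 4.90 ± 0.5 to 74.6 ± 21.1, and C1qb, of the same pathway, fell from 13.4 ± 3.78 to 5.28 ± 1.32, with Cre controls at 4.81 to 9.77. C5ar2 rose 1.62-fold and C5ar1, at 215 ± 5.44 and 236 ± 19.0, was not called.

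Surface receptors for antibodies, lectins and sialic acids changed one by one. Fcgr2b, the inhibitory Fc receptor, had 1049, 976 and 1042 normalized reads in knockouts and 246, 248 and 234 in floxed controls (log2 fold change 2.07, SE 0.0630, adjusted p = 8.00e-07). Fcgr1, an activating receptor of high affinity, fell from 59.3 ± 4.77 to 21.0 ± 4.01, and Fcgr4, another activating receptor, rose from 87.4 ± 5.47 to 129 ± 6.22. Of 8 measured Siglec genes, limma, edgeR and DESeq2 each called 5 lower and 0 higher, and the same counts were under 0.05 at an unadjusted p. Siglece, an inhibitory sialic acid receptor, had 58.1, 56.9 and 51.5 in floxed controls and 10.4, 7.30 and 5.84 in knockouts. Siglecf, the surface marker of alveolar macrophages, fell from 469 ± 22.6 to 334 ± 8.94. The fungal sensor genes Clec4n and Clec7a, which encode Dectin-2 and Dectin-1, fell 3.52-fold and 2.31-fold. Over the 24 lectin and scavenger receptors 10 were lower and 5 higher (2 higher without knockout library 1 or 3, 3 without knockout library 2). Tlr9 fell from 4.38 ± 1.90 to 0.805 ± 0.320, Tlr4 rose from 173 ± 5.04 to 227 ± 7.73 and Tlr2, at 597 ± 53.3 and 553 ± 44.2, was not called. Mertk, a receptor for the uptake of dying cells, fell from 373 ± 42.4 to 243 ± 9.89, and Axl, of the same family, had 2142 ± 57.3 and 1990 ± 47.0 and was not called.

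Class II genes of antigen presentation were called mainly higher. Of 17 class II genes, 10 were higher and 2 lower (1 lower without floxed library 1 or 2, 0 lower with any 1 knockout library left out). Ciita, the class II transactivator, had 123, 129 and 135 normalized reads in knockouts and 26.7, 11.7 and 21.6 in floxed controls (log2 fold change 2.70, SE 0.250, adjusted p = 0.000181). Cd74, the invariant chain, had 6695, 6260 and 6119 against 1496, 609 and 859, and per kilobase of exon it went from rank 48 to rank 6. The chain genes H2-Ab1, H2-Aa and H2-Eb1 rose 6.33-fold, 5.93-fold and 4.79-fold. In all 5 of these genes floxed library 1 was the highest floxed library and library 2 the lowest, and every knockout library lay above all 3. Nlrc5, the transactivator of class I genes, went the other way, from 20.2, 17.0 and 18.0 in floxed controls to 6.05, 4.34 and 3.60 in knockouts (log2 fold change -1.80, SE 0.164, adjusted p = 0.000168). The class I gene H2-Q7 fell 2.59-fold, while H2-K1, at 739 ± 129 and 762 ± 54.4, and B2m, at 1444 ± 251 and 1678 ± 63.6, were not called. Of 23 class I and immunoproteasome genes 8 were lower and 3 higher, with 5 lower without knockout library 2 or 3 and 1 higher without knockout library 2. Of 18 costimulatory genes, 7 were called lower and 5 higher. Cd86 fell from 21.1 ± 2.62 to 8.29 ± 1.28, Icosl from 54.3 ± 2.74 to 19.7 ± 2.26 and Cd276 from 5.19 ± 0.212 to 1.87 ± 0.215, and Cd274, at 221 ± 16.5 and 243 ± 25.9, was not called.

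Dendritic cells also carry CD11c, and their markers were called mainly lower in the knockouts. All 15 measured markers lay lower in every knockout than in every floxed library, as did 23.1% of all genes. Of the 15, 13 were called lower, beside 15.1% of all genes (8 where only genes with at least 5 normalized reads in at least 3 of the 6 libraries were tested). Their summed level was 173 to 318 normalized reads in floxed, 95.2 to 106 in knockout and 204 to 392 in Cre control libraries. None of the 15 was at 0 in any of the 6 libraries. Ccr7, the receptor that guides dendritic cells to lymph nodes, had 42.4, 19.1 and 25.4 in floxed controls, 3.30, 4.90 and 4.72 in knockouts and 26.0, 69.8 and 61.6 in Cre controls (log2 fold change -2.44, SE 0.269, adjusted p = 0.000432). Fscn1, an actin-bundling gene of mature dendritic cells, fell 7.35-fold, Flt3, a growth factor receptor, 4.41-fold, and Zbtb46, a factor of that lineage, 3.54-fold. The part of these cells in the changes of presentation, costimulation and cytokine genes was not tested.

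Of 22 cytokine genes, 10 were called lower and 2 higher (6 lower without knockout library 3, and 1 higher with any 1 library left out), and of 18 chemokine genes, 6 were called lower and 1 higher. Tnf had 41.9, 32.3 and 29.6 normalized reads in floxed controls and 11.8, 6.89 and 7.88 in knockouts (log2 fold change -1.87, SE 0.199, adjusted p = 0.000354). Il12b, a subunit of interleukins 12 and 23, fell from 3.93 ± 1.84 to 0.595 ± 0.143, and Il1a 2-fold. Mif, a cytokine with enzyme activity, rose, with 317, 312 and 292 in knockouts against 35.1, 31.7 and 23.8. Among chemokines, Ccl17 fell from 16.1 ± 8.89 to 2.09 ± 0.889, Cxcl16 from 33.8 ± 10.6 to 9.17 ± 1.57 and Cxcl3 from 28.3 ± 16.6 to 4.15 ± 1.96, and Cxcl14 rose from 8.13 ± 1.03 to 12.9 ± 1.25. Of 44 interferon-stimulated genes, 21 were called lower and 2 higher (11 lower without knockout library 2 or 3). Irf7, the factor that amplifies interferon, fell from 15.1 ± 4.59 to 5.04 ± 1.84 and Ifit3 from 6.28 ± 1.86 to 1.52 ± 0.801. Irf5, a factor of inflammatory macrophages, fell from 98.4 ± 16.6 to 29.2 ± 1.14. Against that trend, Samd9l, an antiviral and growth-restraining gene, had 220, 243 and 264 in knockouts and 63.0, 53.6 and 82.4 in floxed controls. Of the arachidonic acid genes, Ptgs1, cyclooxygenase 1, fell 3.97-fold and Ptgir, the prostacyclin receptor, 4.24-fold, while Alox5, which starts leukotriene synthesis, rose from 302 ± 12.5 to 422 ± 10.2 and the leukotriene receptor gene Cysltr1 2.13-fold.

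Of 21 sterol synthesis genes, limma, edgeR and DESeq2 each called 19 lower and 0 higher, and 20 were lower and 0 higher at an unadjusted p under 0.05. Cyp51, a sterol demethylase, had 146, 113 and 97.4 normalized reads in floxed controls and 49.1, 38.7 and 33.5 in knockouts (log2 fold change -1.53, SE 0.175, adjusted p = 0.000508). Srebf2, the transcription factor of the pathway, fell from 213 ± 15.4 to 153 ± 10.1. In fatty acid synthesis 11 of 18 genes were lower and 5 higher. Acly, which makes cytosolic acetyl-CoA, rose from 415 ± 14.3 to 1401 ± 72.8, while Fasn, fatty acid synthase, fell from 143 ± 13 to 70.7 ± 6.14. The desaturases of saturated fatty acids, Scd1 and Scd2, rose 3.69-fold and 1.76-fold. The desaturases of polyunsaturated fatty acids, Fads1 and Fads2, fell 11-fold and 10.5-fold. Fads1 had 29.6, 24.3 and 24.8 in floxed controls and 3.30, 2.40 and 1.48 in knockouts, with no overlap (adjusted p = 3.25e-05). Fads2 was low, at 3.72 ± 1.10 and 0.355 ± 0.184, with Cre controls at 0.787 to 1.78.

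Genes of lipid transport and storage were called mainly higher. Of 34 uptake and droplet genes, 17 were higher and 3 lower (1 lower without floxed library 2 or knockout library 2 or 3), and of 24 apolipoprotein and efflux genes, 9 were higher and 5 lower (3 lower without knockout library 2 or 3). Apoe, an apolipoprotein of cholesterol efflux, had 811, 709 and 625 normalized reads in knockouts and 131, 89.3 and 98.7 in floxed controls (log2 fold change 2.75, SE 0.151, adjusted p = 1.33e-05). Apoc1 rose 6.06-fold, and the phospholipid transfer gene Pltp, which overlaps Ctsa, 5.84-fold. The cholesterol exporters Abca1 and Abcg1 rose 2.10-fold and 1.53-fold. Plin4, a droplet coat gene, rose from 0.269 ± 0.151 to 18.9 ± 6.70, and Hilpda, a hypoxia-inducible inhibitor of lipolysis, from 4.01 ± 0.279 to 23.9 ± 3.35. Plin2, the main droplet coat of macrophages, had 990, 1091 and 1011 in floxed controls and 1334, 1373 and 1320 in knockouts. The fatty acid carriers Fabp4 and Fabp1 rose 2.74-fold and 2.21-fold and the transporter gene Slc27a1 3.47-fold, while Lpl, lipoprotein lipase, had 3336 ± 311 and 3248 ± 545 and was not called. In surfactant lipid breakdown 8 of 25 genes were higher and 6 lower, with Smpd1, acid sphingomyelinase, rising from 28.8 ± 3.89 to 72.7 ± 5.64.

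Antioxidant genes were called mainly lower. Of 39 genes of the NRF2, glutathione and thioredoxin list, 19 were lower and 8 higher (4 higher without knockout library 2 and 5 without knockout library 1). Slc7a11, the cystine importer, had 143, 151 and 116 normalized reads in floxed controls and 28.5, 24.5 and 19.2 in knockouts (log2 fold change -2.46, SE 0.152, adjusted p = 2.33e-05). Nqo1, a quinone reductase, fell from 7.07 ± 1.24 to 1.18 ± 0.431, Txnrd1, thioredoxin reductase, from 268 ± 29.9 to 103 ± 4.64 and Srxn1, which repairs peroxiredoxins, from 95.1 ± 5.74 to 39.8 ± 4.69. Nfe2l2, which encodes NRF2, fell from 248 ± 32.6 to 162 ± 20.2. The microsomal transferase genes Mgst2 and Mgst3 rose 2.99-fold and 2.62-fold. Cre controls were not uniform here: Slc7a11 was at 92.2, 273 and 223, Srxn1 at 79.3, 166 and 131.

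Of 33 measured genes of the list of amino acid stress under the transcription factor ATF4, 9 were lower and 7 higher (4 higher without knockout library 3). Phgdh, the first enzyme of serine synthesis, had 231, 246 and 198 normalized reads in floxed controls and 103, 73.4 and 64.7 in knockouts (log2 fold change -1.5, SE 0.165, adjusted p = 0.000433). Psat1, the next enzyme, fell 2.22-fold, Mthfd2, a mitochondrial folate enzyme, 3.32-fold and Asns, asparagine synthetase, 3.01-fold. Stc2, a secreted glycoprotein gene of the same list, went the other way, from 0.260 ± 0.118 to 10.4 ± 1.13. Ero1l, which oxidises folding proteins in the endoplasmic reticulum, rose from 89.7 ± 2.10 to 314 ± 25.5. Of 24 heat shock genes, 10 were lower and 1 higher (4 lower without knockout library 2 or 3 and 5 without floxed library 2, 0 higher without floxed library 2 or knockout library 1 or 3 and 2 without floxed library 1), and the near-identical copies Hspa1a and Hspa1b, whose reads cannot be cleanly divided, fell 5.30-fold and 5.10-fold.

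Iron genes fell in 12 of 30 cases and rose in 4. Hmox1, the heme oxygenase that frees iron from heme, had 475, 612 and 599 normalized reads in floxed controls and 218, 283 and 214 in knockouts (log2 fold change -1.24, SE 0.137, adjusted p = 0.000436), with Cre controls at 488, 1190 and 1013. Slc40a1, ferroportin, which exports iron, fell from 24.1 ± 6.46 to 7.00 ± 1.34, and Slc11a1, which moves iron out of phagosomes, from 37.5 ± 7.67 to 9.62 ± 2.62. Alas1, the first enzyme of heme synthesis, fell from 371 ± 47.4 to 154 ± 7.15. The heme carrier genes Slc48a1 and Flvcr1 fell 2.25-fold and 2.22-fold, and the transferrin receptor gene Tfrc 2.09-fold. Trf, transferrin itself, rose from 1810 ± 128 to 4167 ± 196, and per kilobase of exon it moved from rank 56 to rank 29. Ftl1, the ferritin light chain, had 7101 ± 793 and 6929 ± 204 and was not called.

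The label of alveolar macrophages held against their markers. Chil3 and Lyz2 had the highest levels per kilobase of exon in both groups, Lyz2 first in floxed and Chil3 first in knockout libraries. Of 15 alveolar macrophage markers, 5 were higher and 3 lower (3 higher without knockout library 1). None was at 0, but the same holds for the measured markers of every other cell type, so this does not set these cells apart. Lyz2, lysozyme, had 28335, 24117 and 20007 normalized reads in floxed controls and 10371, 9152 and 8163 in knockouts (log2 fold change -1.38, SE 0.196, adjusted p = 0.00147), while Cre controls had 24653 to 30964. Pparg, the factor that specifies these cells, rose from 152 ± 14.8 to 223 ± 21.0, and its droplet target Cidec from 246 ± 18.4 to 387 ± 11.4. Krt79, a keratin typical of these cells, fell from 397 ± 16.9 to 187 ± 21.5. Plet1, at 1207 ± 49.0 and 1305 ± 66.5, was not called. Among identity and signalling genes, the growth factor receptor genes Csf1r and Tgfbr1 fell 1.56-fold and 1.79-fold, Tgfbr2 was not called at 620 ± 35.9 and 601 ± 14.3, and Etv5 rose from 3.62 ± 0.708 to 38.3 ± 5.74. Smad6, an inhibitor of BMP signals, rose from 1.05 ± 0.382 to 14.6 ± 2.72 and Id2 from 102 ± 9.97 to 247 ± 25.6. Also among the 10 most abundant called genes were Psap, which encodes saposins and fell from 6724 ± 378 to 4415 ± 135, and Vim, vimentin, which rose from 3203 ± 115 to 4754 ± 146. Of these 10, Cybb, Hspa8, mt-Cytb and Gm10925 lost their call with 1 library left out, with adjusted p-values of up to 0.0957 (without knockout library 1), 0.165 (without knockout library 3), 0.141 and 0.126 (both without knockout library 2).

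Markers of other cells were measured too. Neutrophil markers were higher in library 1 of each group, with summed levels of 765, 224 and 213 normalized reads in floxed and 431, 144 and 143 in knockout libraries, and limma, edgeR and DESeq2 each called 0 of 7 (2 lower without knockout library 1, 1 higher without floxed library 1 by limma), with 1 lower at an unadjusted p under 0.05. With the replicate number as a block, limma called 5 of the 7 lower and 1 higher, though the numbers were not taken as pairs. On the second principal component, with 15.7% of the variance, library 1 of both groups also lay apart, at 26.4 and 14.4 against -19.6 to -4.95 for the others. The first component, with 71.0%, separated knockout from floxed libraries. Epithelial markers summed to 588 to 791 in floxed and 1063 to 1123 in knockout libraries, and Krt19 made up 56.1 and 69.0% of that sum. Krt19 rose from 370 ± 5.71 to 752 ± 48.9 and Cdh1 from 132 ± 16.0 to 263 ± 11.9, while Epcam fell from 68.9 ± 17.9 to 26.6 ± 2.08. The surfactant gene Sftpc, which defines alveolar type 2 cells, was at 0.563 ± 0.550 and 0.560 ± 0.420. Interstitial macrophage markers summed to 125 to 200 in floxed and 645 to 841 in knockout libraries, of which Apoe alone made up 66.7 and 96.5%, and 4 of the 8 measured were called lower (2 without knockout library 3). Monocyte markers summed to 981 to 1084 and 873 to 897. Of the 10 measured, 2 were called higher, F13a1 (71.4-fold, given above) and Ace (2.41-fold). Another 2 were called lower (4 without floxed library 2, 5 with the replicate number as a block), among them Treml4, which fell 3.45-fold. The share called was 40%, beside 31.1% of all genes. The part of any of these cells in the results above was not tested.

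**Figure D4:**
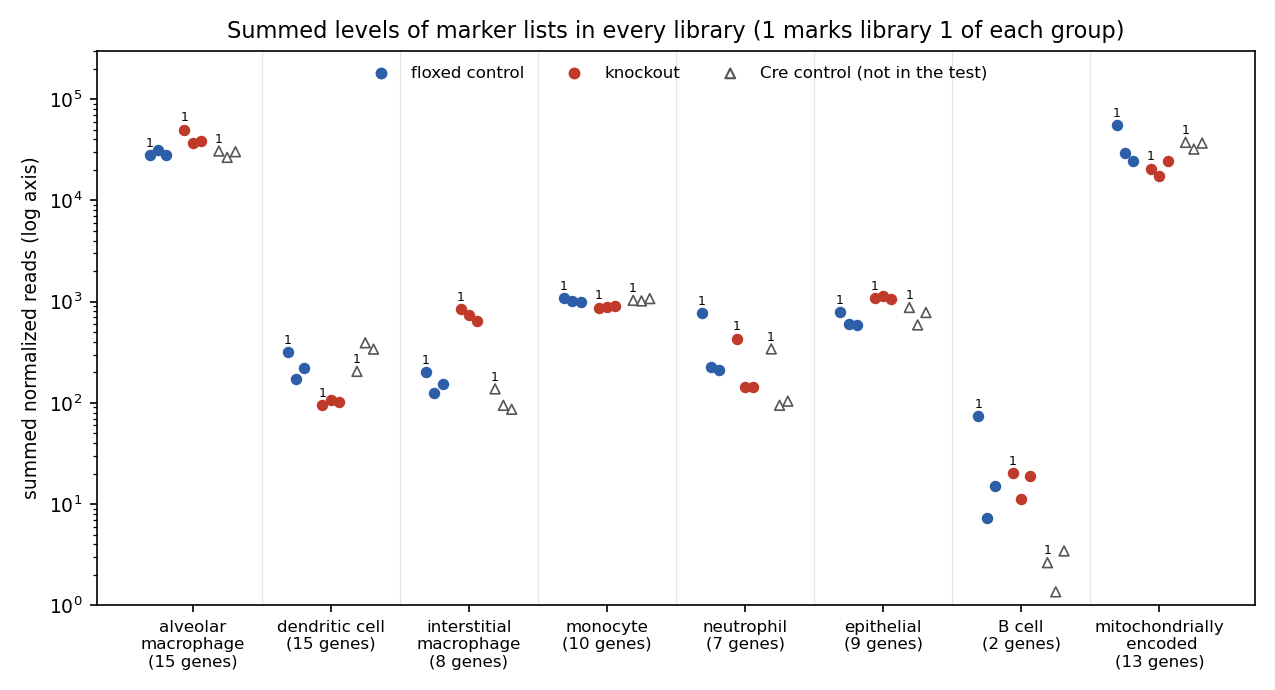
Points are single libraries, with the summed normalized reads of 8 gene lists on a logarithmic vertical axis and the lists along the horizontal axis (genes measured in brackets); blue is floxed control, red knockout, open triangles Cre control, and the digit marks library 1 of each group. Dendritic cell markers lie lower in the 3 knockouts (95.2 to 106) than in the 3 floxed controls (173 to 318), and neutrophil markers are highest in library 1 of each group.

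Since the knockouts also carry Cre, genes were looked for in which the Cre controls sat with the knockouts. Of 658 genes called with at least a 2-fold change and a mean of at least 5 normalized reads in 1 group, 5 (0.760%) had all 3 Cre control libraries on the knockout side of the midpoint between the group means on the log2 scale. Plcb4, a phospholipase gene, had 4.24, 1.43 and 0.721 in floxed controls, 10.3, 13.6 and 12.6 in knockouts and 23.3, 15.5 and 28.3 in Cre controls. Eps8, an actin regulator on chromosome 6, had 14.5, 12.2 and 12.4, then 28.6, 28.2 and 34.3, then 58.7, 62.7 and 68.6. In both genes the Cre controls exceeded the knockouts. Pzp, a protease inhibitor gene, rose from 2.29 ± 0.770 to 10.9 ± 0.582, with Cre controls at 7.46 to 7.90, Id3 from 3.00 ± 0.569 to 11.9 ± 3.58, with 6.22 to 8.42, and Gsg1 from 1.69 ± 0.180 to 5.19 ± 0.425, with 3.19 to 3.22. Pzp and Gsg1, like Eps8, lie on chromosome 6, which carries Vhl and 572 of the 12003 genes. In the floxed comparison the loss of Vhl and the presence of Cre cannot be told apart for any gene. The midpoint rule is a description, and genes that did not meet it were not tested for a part of Cre.

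The neighbourhood of the floxed gene was not swept in 1 direction. Of 24 measured genes within 1 Mb of Vhl, 8 were called (31.1% of all genes were), 4 higher and 4 lower. Srgap3 had 14.3, 25 and 22.1 normalized reads in knockouts and 8.53, 7.37 and 8.08 in floxed controls (adjusted p = 0.00220), and Cidec, given above, is another. Fancd2 and Rad18, both of DNA repair, fell 1.93-fold and 1.67-fold, and Sec13, of vesicle coats and nuclear pores, 1.28-fold.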

How the data were processed

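RNA of 6 pooled libraries, 3 Vhl knockout and 3 floxed control, was analysed from 1 table of 12003 genes, 60 of them without a name. The deposited values are a signal per gene that the authors scaled per library: all of them are whole reads times 1 factor per library, within 0.01 read, so read counts could be recovered. The tools named, per the submitters' processing notes, are RSEM 1.2.3, cutadapt 1.3 and CASAVA 1.8.2, with genome build GRCm38. Of the annotation, strand setting and later steps nothing is stated (not given in the sources used here). For every gene the third highest of its 9 values was at least 0.962, so the table had been filtered on low values. The scaling is not for gene length, and levels were compared between genes only per kilobase of GENCODE M21 exon.

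Values were tested as log2(value + 1) with limma 3.58.1 (R 4.3.3, empirical Bayes with an intensity trend, two-sided) on the 6 libraries alone, with Benjamini-Hochberg adjustment over all 12003 genes and a call at an adjusted p under 0.05. A fold change on this scale understates the change of low genes. Counts of genes past a given fold are on this scale, and N-fold changes of single genes are ratios of group means. Counting intervals are exact, cover 95% and, like the floor of 3 reads, cover counting error only. Alternatives were other pseudocounts, a filter, library size alone, edgeR 4.0.16 and DESeq2 1.42.0 on recovered reads, no trend, the replicate number as a block and leaving out each library. Genes were named by rule: Vhl, the 15 highest and 15 lowest called changes (groups apart, mean of 5 or more normalized reads in 1 group), the 10 most abundant called genes, members of 59 gene lists, genes with Cre controls on the knockout side, and genes within 1 Mb of Vhl. The members and lists were chosen with earlier results of these data known, so counts over a list are descriptions. A few named genes are not reported here.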

Additional observations from a re-analysis of the deposited data

How the results depend on the processing

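Vhl kept its direction and call in all 14 alternatives, with log2 fold changes from -3.02 (DESeq2) to -1.67 (pseudocount 5). The number of genes called was 3750 and 3680 with pseudocounts of 0.5 and 5, 3694 with edgeR, 3891 with DESeq2, 3455 without the trend, and 3315 of 9930 genes with the filter on low values. With 1 library left out it ran from 2514 to 3634, with 1319 to 1912 higher and 1195 to 1817 lower, and the lowest counts came without knockout library 3. Of the 3734 genes called, 2265 kept their call without any 1 library and 2259 in all 14 alternatives, and of 803 called at least 2-fold, 750 kept it without any 1 library. Of 239 genes named, 5 lost and 2 gained a call in some alternative. Chil3, not called in the main fit, was 1 of those that gained a call. None changed direction in an alternative where it was called there or in the main fit. Direction was not followed for genes called in neither. Of 114 list counts, 54 moved by over 1.5 times in at least 1 alternative. With the replicate number as a block, 4297 genes were called, 2131 higher and 2166 lower, among them 5 of the 7 neutrophil markers lower and 1 higher, and 5 of the 10 monocyte markers lower. Same-numbered libraries deviated together with correlations of 0.524, 0.0141 and 0.159, libraries 2 and 3 did not correlate best with their own number, and the numbers were not taken as pairs. Changes of genes with a few reads in 1 group are limited by depth, as their counting intervals show.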
